A study of Meriones unguiculatus and Mus musculus with 2 samples.

Results

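The small leucine-rich proteoglycans (SLRPs) and versican are secreted matrix proteins of the skin, and 10 of their genes were described here in wounded skin, once from the Mongolian gerbil, Meriones unguiculatus, and once from the ICR mouse. The 10 genes were chosen by symbol, not by their levels, though earlier results of these data were known. They are Dcn, Bgn, Lum, Fmod, Ogn, Prelp, Aspn, Omd, Podn and Vcan. Each had 1 row among the 41214 mouse gene rows of the deposited expression table. The gerbil group was 1 RNA sequencing library of wounded skin taken 3 days after wounding, and the ICR group, an outbred laboratory mouse stock, was 1 library taken at the same time. The labels call the tissue wounded dermis and give no age, sex or genotype for either animal, nor how many animals a library pools. With 1 library per species nothing below could be tested or checked against replicates, and each difference is one between 2 libraries.

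SLRP proteins carry a chain of leucine-rich repeats that binds collagen fibrils, and most bear glycosaminoglycan chains: chondroitin or dermatan sulfate on decorin and biglycan, keratan sulfate or its unsulfated form on lumican and fibromodulin. In dermis they are made mainly by fibroblasts, control the width and spacing of collagen fibrils, and bind growth factors such as transforming growth factor beta. Versican is a much larger chondroitin sulfate proteoglycan that binds hyaluronan and is a known component of the loose provisional matrix of healing wounds.

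Levels are FPKM, a fragment count divided by transcript length and by library size, so genes can be compared within a library. A gerbil value was taken to belong to a sequence assembled from gerbil reads and paired with its mouse gene, and an expectation value beside it is smaller for a stronger match. Of the 10 genes, 9 had a gerbil value, and all 9 had a listed expectation value of 0, the strongest in the table. That value scores the match and does not show that the gerbil level is right. Fmod had no gerbil match. Values for Dcn, Bgn and Lum were listed for no other gene. Those of Prelp, Aspn, Vcan, Podn, Ogn and Omd, given to 2 decimals, were also listed for 2, 2, 2, 1, 12 and 22 other genes. No gene shared its gerbil value with another of the 10.

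Mouse coding sequences of the 10 genes were compared with those of all other mouse genes to see which could be mistaken for each other. Among the 10, Dcn and Bgn had the longest alignment with each other, alike at 65.0% of 798 bases (GENCODE M21 annotation). The most alike 90-base stretch of that pair is printed here because they were the 2 most abundant of the 10 genes in both species; capitals mark the bases that differ. The Dcn stretch lies in coding exon sequence at chr10:97513630-97513719 and that of Bgn at chrX:73493231-73493320, both on the plus strand of GRCm38.
Dcn: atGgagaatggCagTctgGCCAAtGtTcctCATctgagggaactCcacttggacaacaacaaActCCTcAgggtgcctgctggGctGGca
Bgn: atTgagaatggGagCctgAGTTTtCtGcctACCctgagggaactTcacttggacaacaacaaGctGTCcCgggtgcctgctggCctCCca
Even here 22 of 90 bases differed, and the table gave Dcn and Bgn different gerbil values. Lum and Fmod were the other pair among the 10 with a detectable likeness, over 126 aligned bases (69.8% alike). Their stretch is shown because Lum had a gerbil match and Fmod had none; it lies at chr10:97568361-97568450 in Lum and chr1:134040457-134040546 in Fmod, again on the plus strand, with 27 differing bases in capitals.
Lum: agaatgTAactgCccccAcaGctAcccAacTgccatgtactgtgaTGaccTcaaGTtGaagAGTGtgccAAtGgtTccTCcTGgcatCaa
Fmod: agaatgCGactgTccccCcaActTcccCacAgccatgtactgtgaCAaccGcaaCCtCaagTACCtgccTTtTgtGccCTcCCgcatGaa
Ogn, Aspn and Omd had no related mouse coding sequence or pseudogene at an expectation value of 1e-05 over at least 100 bases. Prelp was related to Kera, Podn to Podnl1, and Vcan to Ncan, Acan and Bcan, none of them among the 10.

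The table holds no counts, but low ICR values fell on steps. Among 2070 genes with a single annotated transcript over 1500 bases, the product of FPKM and length in kilobases clustered near 0.0465 and its multiples: counting genes within 0.25 of a step, 212 lay at 1 step and 110 at 2 steps, against 9 at 1.5 steps. If 1 step is 1 fragment, the ICR library held about 21500000 fragments. The ICR values of Dcn, Bgn, Vcan and Lum then rested on roughly 18000, 9200, 5000 and 4700 fragments. Those of Prelp, Ogn, Aspn and Podn rested on roughly 1800, 920, 340 and 240. Omd had about 21 (95% Poisson interval 13 to 32) and Fmod about 9.4 (4.1 to 17), so the ICR levels of these 2 genes are uncertain from counting alone. These intervals cover counting error only, and the estimate takes the longest coding transcript as the length. No such estimate was made for gerbil, where the lengths of the assembled sequences are not used here, and the gerbil depth is unknown.

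The 9 genes with both values differed in both directions between the 2 libraries. Dcn, Bgn, Lum, Ogn and Vcan were lower in gerbil, and Prelp, Aspn, Podn and Omd were higher, of which Prelp and Aspn were lower once gerbil was scaled to ribosomal protein and housekeeping genes. The log2 differences (gerbil minus ICR, on FPKM + 1) ran from -1.69 for Ogn to 1.55 for Podn, with a median of -0.41 over the 9 genes. None of the 9 reached 4-fold in either direction. Across the 20089 symbols measured, 25.9% passed 4-fold on the gerbil side and 5.56% on the ICR side, with a median difference of 0.87. Of all calls at that size 82.3% lay on the gerbil side, and 60.3% after gerbil was scaled to ribosomal protein and housekeeping genes. A background nearer in kind to these genes is the 11152 protein-coding symbols whose match also had an expectation value of 0. There 6.1% were at least 4-fold higher and 5.99% at least 4-fold lower in gerbil, with a median of 0.21.

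**Figure D1:**
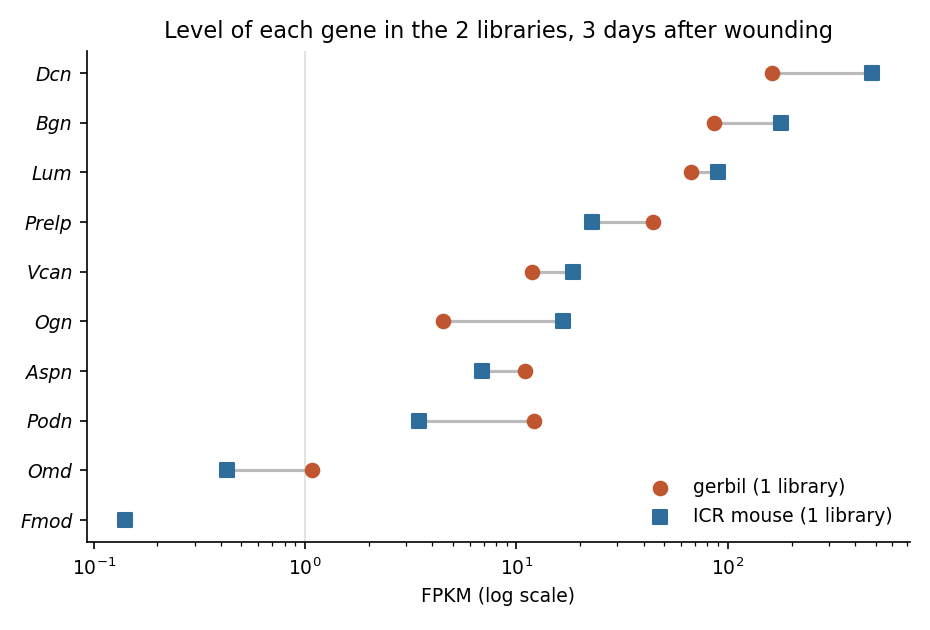
FPKM of each gene on a log axis in the gerbil library (circles) and the ICR library (squares), 1 library each, with genes ordered by ICR level and no error bars because there are no replicates. Dcn, Bgn and Lum are the 3 highest in both libraries with gerbil to the left, while Prelp, Aspn, Podn and Omd have gerbil to the right; Fmod has an ICR value only.

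At a smaller size, 2-fold, Dcn, Bgn and Ogn were lower in gerbil and Podn was higher, or 3 and 1 of the 9. The corresponding shares of the 11152 coding symbols were 16.4% lower and 21.6% higher, and of all 20089 symbols 12.9% and 47.2%. A symbol counted as measured when it was valued in both libraries and reached 1 FPKM in gerbil, in ICR or in both. Omd met this only through its gerbil value, so its higher gerbil level follows in part from the filter.

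Decorin and biglycan are the class I SLRPs with dermatan or chondroitin sulfate chains. Dcn, decorin, which binds collagen and sequesters growth factors (chromosome 10, 97479500 to 97518162, plus strand, GRCm38), was at 162 FPKM in gerbil and 482 in ICR, a log2 difference of -1.56. It was the highest of the 10 in each library. Bgn, biglycan (chromosome X, 73483602 to 73495933), which when released from matrix can activate Toll-like receptors on macrophages, was at 85.9 FPKM in gerbil and 177 in ICR, a difference of -1.04. Both class I genes with glycosaminoglycan chains were therefore more than 2-fold lower in gerbil, Bgn barely so at 2.05-fold. At least 2-fold lower were also 16.4% of the 11152 coding symbols, and 30.7% of those at 50 FPKM or more in ICR. Aspn, asporin, is the class I member whose protein starts with a run of aspartates and which lacks such a chain (chromosome 13, 49544443 to 49567557). Its level was 10.96 FPKM in gerbil and 6.86 in ICR. Its difference was 0.61, and -0.50 under the ribosomal and housekeeping scaling, so its direction depends on the scaling.

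The class II genes encode keratan sulfate SLRPs and relatives, and they did not move as a block. Lum, lumican, a regulator of collagen fibril growth and of corneal transparency (chromosome 10, 97565501 to 97572703), was at 66.9 FPKM in gerbil and 89.5 in ICR, a difference of -0.41. Prelp, a heparin-binding SLRP of basement membranes and cartilage (chromosome 1, 133910304 to 133921414, minus strand), was at 44.2 FPKM in gerbil and 22.7 in ICR, a difference of 0.93 that became -0.29 under the ribosomal and housekeeping scaling. Prelp overlaps the antisense gene Gm15851, which carried the same gerbil value and an ICR value near 0. The labels do not say whether strand was used in counting, and without it ICR reads of the pair cannot be told apart. How the pair came to share a gerbil value is not known. Omd, osteomodulin, known from bone and tooth matrix (chromosome 13, 49582766 to 49592609), was near the bottom in both species, at 1.08 FPKM in gerbil and 0.427 in ICR. Fmod, fibromodulin, a collagen-binding SLRP abundant in tendon and cartilage (chromosome 1, 134037254 to 134048277), was at 0.14 FPKM in ICR. With no gerbil value, its level there is unknown rather than low.

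Ogn and Podn lay at the 2 ends of the differences. Ogn, osteoglycin or mimecan, of class III (chromosome 13, 49608071 to 49624500), was at 4.49 FPKM in gerbil and 16.7 in ICR, a difference of -1.69. Podn, podocan, of class V (chromosome 4, 108014791 to 108096445, minus strand), was at 12.1 FPKM in gerbil and 3.48 in ICR, a difference of 1.55. Podn thus ranked above Ogn in gerbil and below it in ICR. The listed span of Podn overlaps Scp2 on the same strand, which was at 56.4 FPKM in gerbil and 74.3 in ICR. The ICR value of Podn can therefore include reads that belong to Scp2. Podn remained higher in gerbil under each pseudocount and scaling tried, down to 0.43 under the ribosomal and housekeeping scaling. Aspn, Omd and Ogn all lie within the span of Cenpp, a centromere protein gene on the opposite strand, which was at 3.49 FPKM in gerbil and 4.53 in ICR. These overlaps are of mouse gene spans, and whether they bear on values of sequences assembled from gerbil reads is not known.

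Vcan, versican (chromosome 13, 89655312 to 89742509, minus strand), was at 11.8 FPKM in gerbil and 18.6 in ICR, a difference of -0.61. The annotation gives Vcan 9 transcripts, the longest of 12427 bases, and its coding sequence of 10062 bases is the longest of the 10. Its listed span overlaps the antisense gene Gm4117, at 11.1 FPKM in gerbil and 0.0925 in ICR. A single value per gene does not show which splice form was present. Per length Vcan was a minor member of the set, with Dcn at 13.8 times its FPKM in gerbil and 25.9 times in ICR.

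Within a library the ratio of 2 genes does not depend on how the libraries were scaled to each other, so the make-up of the family was compared this way. Dcn was 40.6% of the summed FPKM of the 9 genes in gerbil and 59.0% in ICR. Bgn held nearly the same share in both, 21.5% in gerbil and 21.7% in ICR. Lum made up 16.7% in gerbil and 10.9% in ICR, and Prelp 11.1% in gerbil and 2.78% in ICR. Dcn thus held a smaller share of the listed gerbil sum, and Lum and Prelp larger ones. The gerbil value of Prelp was also listed for 2 other genes. Gerbil values belong to assembled sequences whose lengths are not used here, and the part of assembly or length in these shares was not tested. Podn took 3.03% in gerbil and 0.425% in ICR, Vcan 2.95% and 2.27%, Aspn 2.74% and 0.838%, and Ogn 1.12% and 2.04%. Omd was under 1% in each, at 0.27% and 0.0521%. The sum itself was 400.0 FPKM in gerbil and 818 in ICR.

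**Figure D2:**
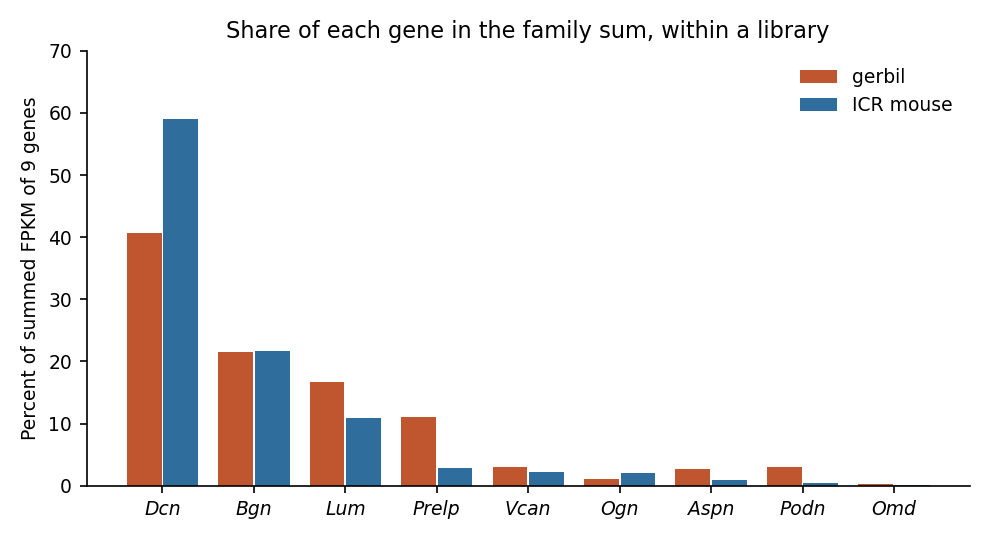
Share of each gene in the summed FPKM of the 9 genes with both values (percent, bars from 0), gerbil left of ICR, 1 library each. Dcn holds 40.6% in gerbil and 59.0% in ICR, Bgn about the same share in both, and Lum and Prelp more in gerbil.

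The order of levels was alike at the top and differed below it. In gerbil the order was Dcn, Bgn, Lum, Prelp, Podn, Vcan, Aspn, Ogn and Omd, and in ICR it was Dcn, Bgn, Lum, Prelp, Vcan, Ogn, Aspn, Podn, Omd and Fmod. Podn, Vcan and Aspn were close together in gerbil, between 10.96 and 12.1 FPKM, and without replicates their order there cannot be read as real. Dcn was at 1.89 times Bgn in gerbil and 2.72 times in ICR, and at 2.43 times Lum in gerbil and 5.39 times in ICR. Against Podn it was at 13.4 times in gerbil and 139 times in ICR. Aspn was at 2.44 times Ogn in gerbil and at 0.411 times in ICR.

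Rank among the 11152 coding symbols gave a second view that needs no scaling. Dcn lay above 96.6% of them in gerbil and above 99.2% in ICR, Bgn above 93.2% and 97.5%, and Lum above 91.0% and 94.1%. Prelp lay above 85.9% in gerbil and 73.6% in ICR, Podn above 57.7% and 27.3%, and Aspn above 54.9% and 42.2%. The rank gap was widest for Ogn and for Podn: Ogn lay above 31.6% of symbols in gerbil and 66.1% in ICR. Vcan was above 57.0% and 69.0%. Omd was the gene whose rank and FPKM disagreed in direction, above 2.91% in gerbil and 7.17% in ICR. A symbol needed 1 FPKM in either library to be ranked, and Omd reached it in gerbil alone. Ranks this near the floor follow in part from that filter, and nothing is read from those of Omd.

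Levels in ICR were also set beside the direction of the difference. Since the ICR level is one of the 2 values compared, dividing genes by it favours lower gerbil values above the division and higher ones below it, and nothing is read from the shares. All 3 genes at 50 FPKM or more in ICR (Dcn, Bgn, Lum) were lower in gerbil, as were 64.2% of the 1298 coding symbols at that level, whose median difference was -0.36. Dcn and Bgn passed 2-fold lower, a size that 30.7% of those 1298 reached. Below 50 FPKM, 4 of the 6 genes were higher in gerbil, against 60.2% of 9854 symbols with a median of 0.28. The level of 50 FPKM was set after the values were seen.

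**Figure D3:**
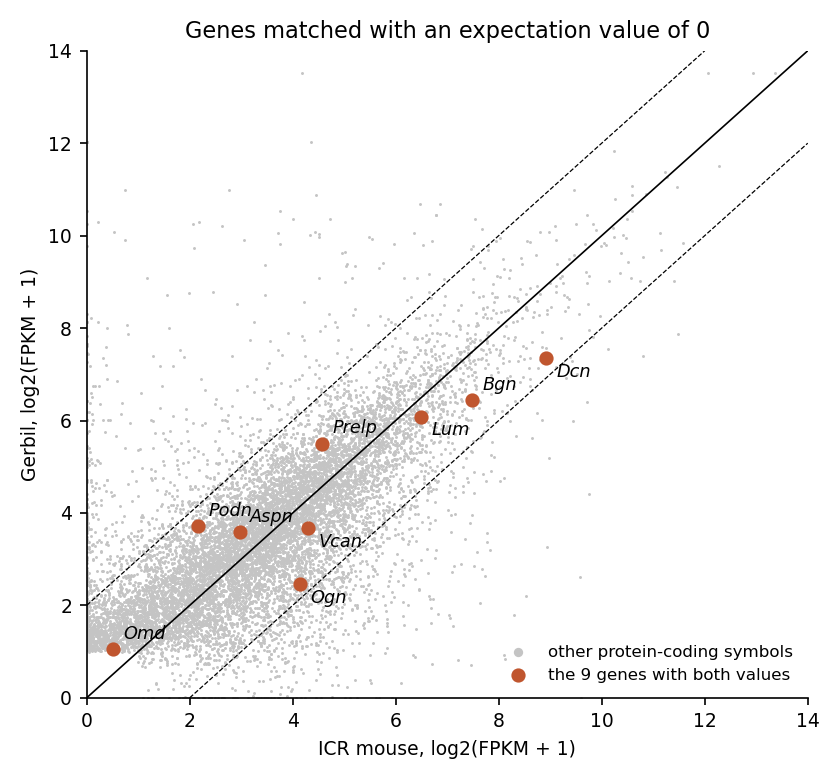
log2(FPKM + 1) in gerbil (vertical) against ICR (horizontal) for the 11152 protein-coding symbols matched with an expectation value of 0 (grey) and the 9 genes (orange); the solid line marks equal values and the dashed lines 4-fold. All 9 genes lie between the dashed lines, with Ogn and Dcn nearest the lower one and Podn nearest the upper one.

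SLRP genes sit in small groups on the chromosomes, and their levels were compared along these groups. In the mouse table the order Dcn, Lum, Kera, Epyc on chromosome 10 had 0 other coding genes starting between its first and last start, and so did Ecm2, Aspn, Omd, Ogn on chromosome 13 and Optc, Prelp, Fmod on chromosome 1. Cenpp, described above, starts outside the chromosome 13 stretch and runs through Aspn, Omd and Ogn. The same 3 orders, also with 0 other coding genes starting between, were found in the gerbil RefSeq annotation (assembly Bangor_MerUng_6.1), which lists all 10 genes, Fmod included. Levels differed widely between neighbours. Next to the abundant Dcn and Lum, Kera (keratocan, of cornea) was at 0.0469 FPKM in ICR and Epyc (epiphycan, of cartilage) at 0, and neither had a gerbil match. Next to Aspn, Ecm2 was at 1.47 FPKM in gerbil and 0.931 in ICR.

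Of 10 SLRP family genes outside the set, 6 had no gerbil match and 4 were measured, with 0 past 4-fold. Among all 40993 rows with an ICR value, 19937 had no gerbil value. The shares past 4-fold higher and lower in gerbil were 25.9% and 5.56% of all symbols. For coding symbols with an expectation value of 0 they were 6.1% and 5.99%. Optc, Chadl and Ecm2 passed the floor of 1 FPKM only through gerbil, so their higher gerbil levels follow from the filter. Tsku, tsukushi, a secreted SLRP that modulates developmental signals, the only one to reach 1 FPKM in both, was at 10.8 FPKM in gerbil and 10.9 in ICR. Optc, opticin of the eye, was at 2.41 FPKM in gerbil and 0.105 in ICR on a match of 2e-112. Of the lectican relatives of versican and their link proteins, 5 of 7 had no gerbil match, and the 1 measured, Ncan (neurocan), was at 1.96 FPKM in gerbil and 0.0118 in ICR on a weak match of 2e-41. Among the lecticans only Vcan had an expectation value of 0.

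Genes that build the glycosaminoglycan chains mostly differed by less than 4-fold. The 6 genes of the linker that attaches chains to the core protein had 0 past 4-fold and a median of -0.15, with Fam20b, the xylose kinase, at 22.6 FPKM in gerbil and 25.2 in ICR. Xylt1, which adds the first xylose, was at 8.7 in gerbil and 3.36 in ICR. The 8 genes of chondroitin and dermatan chain synthesis had 6 higher and 2 lower, 0 past 4-fold, and a median of 0.64 (-0.54 under the ribosomal and housekeeping scaling). Dse, the epimerase that turns chondroitin into dermatan, was at 26.3 FPKM in gerbil and 16.6 in ICR, and the chondroitin synthase Chsy1 at 17.1 and 4.43. Of 9 measured sulfation genes 1 was at least 4-fold higher and 0 lower in gerbil, against 25.9% and 5.56% of all symbols. Among coding symbols with an expectation value of 0 the shares were 6.1% and 5.99%. The gene past 4-fold, Papss2, which makes the sulfate donor, was at 34.1 FPKM in gerbil and 7.23 in ICR. Its partner Papss1 was at 32.5 in gerbil and 39.6 in ICR. The count of 1 fell to 0 with a pseudocount of 5 FPKM and under each of the 3 scalings. Under the ribosomal and housekeeping scaling 1 gene was at least 4-fold lower. The list median was -0.14, and -0.99 under that scaling.

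Of 5 measured genes of keratan chain synthesis, 3 were at least 4-fold higher in gerbil, against 25.9% of all symbols and 6.1% of coding symbols with an expectation value of 0. All 5 lay on the gerbil side, as did 70.4% of all symbols and 57.3% of those coding symbols, and 2 more genes of the list had no gerbil match. The median was 2.24, against 0.87 over all symbols. B3gnt2, an N-acetylglucosaminyltransferase, was at 69.1 FPKM in gerbil and 13.8 in ICR, and the sulfotransferase Chst2 at 9.36 and 0.584. The third, the galactosyltransferase B4galt4, was at 11.7 FPKM in gerbil and 1.65 in ICR and is named because the count is small. The galactosyltransferase B4galt1 was at 52.1 FPKM in gerbil and 42.3 in ICR. The count of 3 fell to 0 with a pseudocount of 5 FPKM and under the ribosomal and housekeeping scaling, and to 1 under the other 2 scalings. With a floor of 1 FPKM set on each library it was 2, with a median of 1.27. Each of the 3 shared its gerbil value with other rows. Of the 5 only B4galt1 did not, so the count of 0 and median of 0.29 among unshared genes are those of B4galt1 alone. Under the ribosomal and housekeeping scaling the median was 1.005. B3gnt2, B4galt1 and Chst2 also act on glycans other than keratan.

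**Figure D4:**
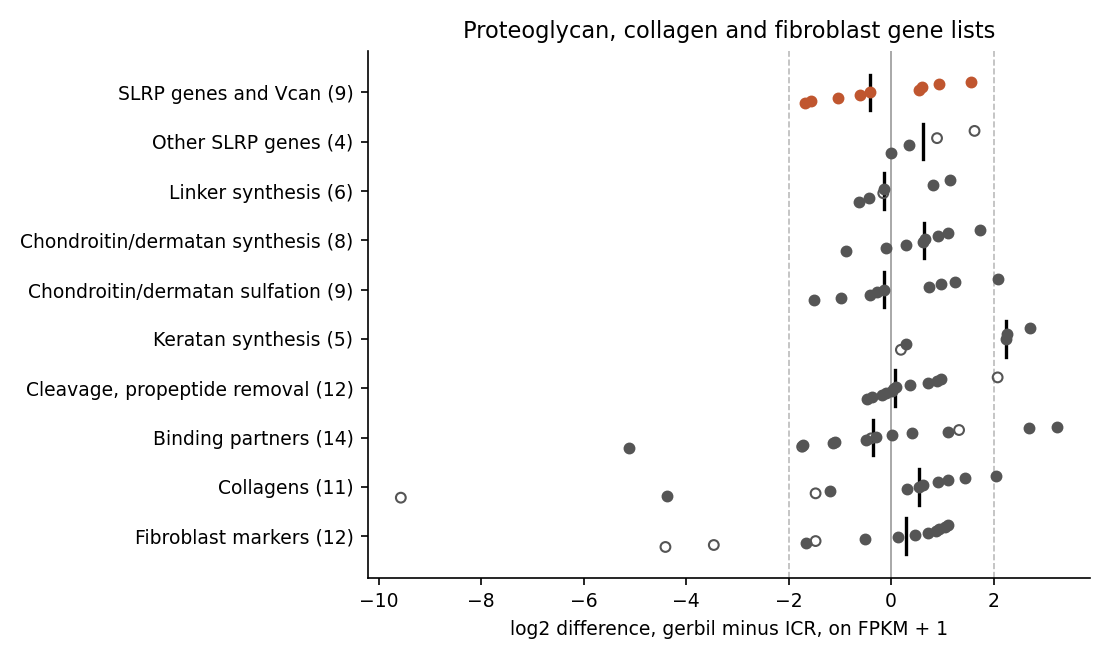
log2 difference (gerbil minus ICR, on FPKM + 1) of each measured gene in the 10-gene set and 9 lists, with the number measured in brackets, the median as a bar and dashed lines at 4-fold; open circles are matches weaker than an expectation value of 0. The SLRP and versican genes lie within the dashed lines, and 3 of 5 keratan synthesis genes lie past the upper one.

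Proteases that process these proteins were described next. Of 12 measured, 1 was at least 4-fold higher and 0 lower in gerbil. The shares past 4-fold were 25.9% and 5.56% of all symbols, and 6.1% and 5.99% of coding symbols with an expectation value of 0. The list median was 0.07, and below 0 under each of the 3 scalings (-0.97 to -0.21). The gene past 4-fold, Adamts4, a protease that cuts versican, was at 18.8 FPKM in gerbil and 3.7 in ICR on a weak match of 7e-39. The count of 1 was 0 under each of the 3 scalings and among genes with an expectation value of 0. Mmp2, a gelatinase, was at 171 in gerbil and 133 in ICR, and Mmp3, stromelysin, which can cut decorin, at 85.0 and 118. Bmp1, which removes the propeptides of biglycan, osteoglycin and procollagens, was at 45.5 FPKM in gerbil and 59.0 in ICR; it is described for that role and not by the naming rule.

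Receptors and growth factors that bind SLRPs or versican differed in both directions. Of 14 measured, 2 were at least 4-fold higher and 1 lower in gerbil, with a median of -0.35. The shares past 4-fold were 25.9% and 5.56% of all symbols, and 6.1% and 5.99% of coding symbols with an expectation value of 0. Under the ribosomal and housekeeping scaling 0 were higher and 5 lower (median -1.40), and under each of the other 2 scalings 2 were higher and 3 lower. Only Tlr4 and Cd44, described below, had a gerbil value that no other row shared. Their differences were 3.23 and -1.09, so the median of 1.07 among such genes gives no direction for the list. Tlr4, a receptor of biglycan, was at 99.6 FPKM in gerbil and 9.70 in ICR, while Tlr2, its other Toll-like receptor, was at 7.0 and 25.3. The second gene past 4-fold on the gerbil side was Tgfb3, a growth factor that decorin can bind, at 15.7 and 1.57. These 3 were named after their values were seen. Cd44, a hyaluronan receptor that binds versican, was at 72.6 FPKM in gerbil and 156 in ICR, and Lrp1, an endocytic receptor that takes up decorin, at 56.4 and 125. Itgb1, an integrin chain, was at 5.18 in gerbil and 212 in ICR; its gerbil value was shared with 13 other genes.

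The collagens that SLRPs coat were set beside Dcn. Of 11 measured collagen genes 7 were higher and 4 lower in gerbil, 1 and 2 of them past 4-fold. The shares past 4-fold were 25.9% and 5.56% of all symbols, and 6.1% and 5.99% of coding symbols with an expectation value of 0. The list median was 0.54 (-0.70 under the ribosomal and housekeeping scaling). That scaling left 0 higher and 4 lower past 4-fold, and among genes with an expectation value of 0 there were 1 and 1. These were Col6a1, at 201 FPKM in gerbil and 48.2 in ICR, and Col6a2, at 1.29 and 46.3, named because the count is small. The gerbil value of Col6a2 was shared with 33 other rows. Dcn was at 0.15 times the FPKM of Col1a2 in gerbil and 0.961 times in ICR. Against Col1a1 it was at 0.799 times in gerbil and 0.851 times in ICR, but Col1a1 had a weaker match of 3e-138. Col3a1 is not used as a yardstick because its match was weak, at 9e-14.

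Fibroblast markers were set beside the SLRP genes, since fewer cells of a type and less RNA per cell cannot be told apart in bulk tissue. All 12 markers were measured, 7 higher and 5 lower in gerbil, with a median of 0.30. Of them 0 were at least 4-fold higher and 2 at least 4-fold lower, against 25.9% and 5.56% of all symbols. Among coding symbols with an expectation value of 0 the shares were 6.1% and 5.99%. The 2 past 4-fold were Mfap5 and Pi16, on weak matches of 5e-06 and 4e-28, named because the count is small. Of the 12, 9 had an expectation value of 0, with none listed at 0 FPKM. Of these 9, 7 were higher and 2 lower in gerbil, with a median of 0.72, and 0 were higher under the ribosomal and housekeeping scaling (median -0.51). Their summed level was 1489 FPKM in gerbil and 835 in ICR, and 410 and 333 for the 8 left without Col1a2. The ratio of Dcn to a marker was lower in gerbil for 8 of the 9, the exception being Fbln2, and for 9 of all 12. Any gene less reduced than Dcn, itself 2.96-fold lower in gerbil, gives a lower ratio. Among the 11152 coding symbols 16.4% were at least 2-fold lower and 5.99% at least 4-fold lower. Most genes would therefore give a lower ratio, and the count says nothing particular about fibroblasts. Dcn was at 1.28 times Dpt (dermatopontin) in gerbil and 5.26 times in ICR, at 1.07 times Thy1 in gerbil and 6.11 times in ICR, and at 16.1 times Pdgfra in gerbil and 32.7 times in ICR. These 3 markers were named after their values were seen.

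Markers of other tissues were present in both libraries. Krt1, a keratin of the epidermis, was at 2469 FPKM in gerbil and 2471 in ICR, so the tissue called dermis held keratinocyte transcripts in each. Of 7 keratinocyte markers 2 were higher and 5 lower in gerbil. Krt5 was at 11792 FPKM in gerbil and 4284 in ICR, and Krt14 at 18470 in gerbil and listed at 0 in ICR; these gerbil values were shared with 8 and 4 other rows. The amount of epidermis in the 2 libraries therefore cannot be read from Krt1 alone. The 3 measured skeletal muscle markers summed to 307 FPKM in gerbil and 141 in ICR, and the 3 adipocyte markers to 104 and 238. Most of the adipocyte sum was Fabp4, at 93.8 FPKM in gerbil and 230 in ICR. Adipoq was at 7.36 in gerbil and 7.75 in ICR, and Plin1 at 2.74 and 0.727. Plin1 passed the floor of 1 FPKM only through gerbil, and it is named because the list is short. Smooth muscle and pericyte markers summed to 94.5 in gerbil and 46.3 in ICR. All 3 measured cartilage markers were higher in gerbil, with a median of 1.44, as were 70.4% of all symbols. Comp was at 2.87 FPKM in gerbil and 0.207 in ICR, and Sox9 at 5.53 and 2.31. Matn1 was at 1.71 in gerbil and listed at 0 in ICR, on a match of 1e-98, and Col2a1 had no gerbil match. Comp and Matn1 passed the floor of 1 FPKM only through gerbil, so their higher gerbil levels follow from the filter. The part of these tissues in the SLRP differences was not tested.

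**Figure D5:**
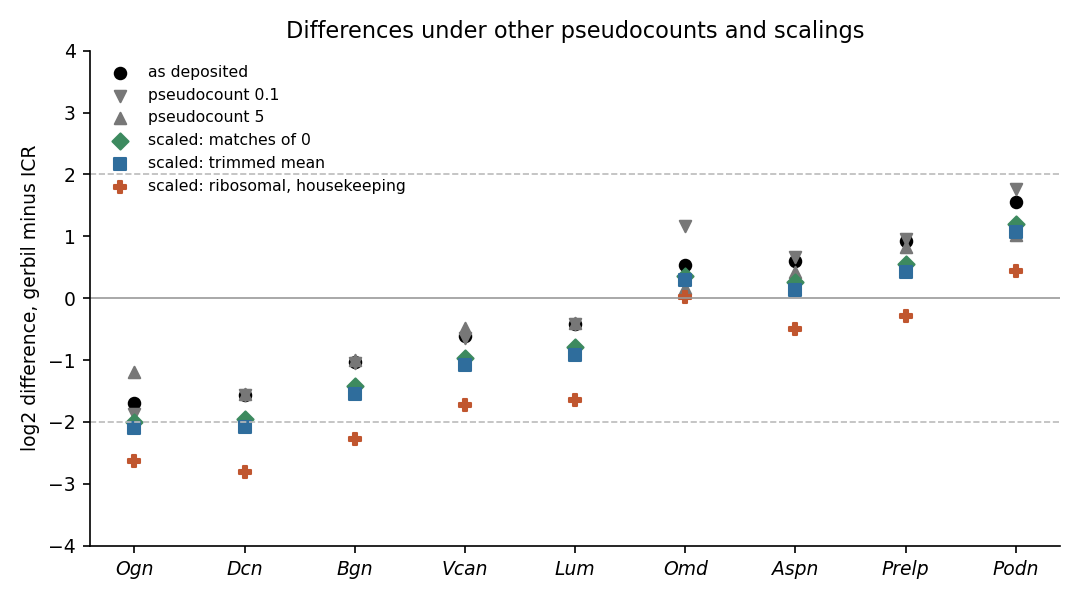
log2 difference (gerbil minus ICR) of each of the 9 genes as deposited, with pseudocounts of 0.1 and 5 FPKM, and after 3 scalings of gerbil; dashed lines mark 4-fold. Ogn, Dcn, Bgn, Vcan and Lum are below 0 and Podn above 0 in every setting drawn, while Aspn and Prelp fall below 0 under the ribosomal and housekeeping scaling.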

How the data were processed

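Each library had 1 FPKM column in the table the authors deposited. The header puts the gerbil column after an assembly step, and beside each gerbil value the authors deposited an expectation value, read here as a score of the match. No source used here says which program made which column. Tools listed in the submitters' processing notes are Cufflinks 2.2.1, RSEM 1.2.19, STAR 2.4.0b and CASAVA, with the mouse build GRCm38.p2. Of 41214 rows, 221 had no value and 19937 had an ICR value only. Differences are log2(FPKM + 1), gerbil minus ICR, which understates those of low genes. A symbol's entry with the highest mean was used. A 4-fold size rule replaced a test. Named genes were the 10 genes and, per list, the 2 most abundant and the 1 most different, with exceptions marked. Members and lists were chosen with earlier results of these data known. Gene classes came from GENCODE M21, where 40254 rows were found. Related sequences were searched with blastn 2.17.0. Python 3.11.15, numpy 2.4.6, pandas 2.3.3, scipy 1.17.1 and matplotlib 3.10.9 were used. Alternatives were pseudocounts, floors, scalings, summed entries, match strength, sharing and size rules.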

Additional observations from a re-analysis of the deposited data

How the results depend on the processing

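Scaling gerbil by a trimmed mean of log ratios, to genes with an expectation value of 0, or to 104 ribosomal protein and housekeeping genes lowered the median of all symbols by 0.40, 0.30 and 0.94 on the log2 scale. Genes at least 4-fold lower in gerbil then numbered 2 under the trimmed mean (Dcn at -2.08, Ogn at -2.10) and 3 under the ribosomal and housekeeping scaling (Dcn at -2.82, Ogn at -2.62, Bgn at -2.28), against 0 as deposited; that these scalings lower gerbil follows from their construction. With a 2-fold rule 1 gene was higher and 3 lower. The median over the genes stayed negative, between -1.65 and -0.39, under every alternative run. Restricted to Dcn, Bgn and Lum, whose gerbil values were listed for no other gene, Dcn was 51.5% of the sum in gerbil and 64.4% in ICR; that both lie above the 40.6% and 59.0% of the 9-gene sum follows from summing fewer genes. The protein-coding restriction was added after the data were examined and changed none of the 9 differences. No paired analysis was possible because there was a single gerbil and a single ICR library, which also leaves no replicate to omit. The gerbil depth is unknown.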
